A study of Homo sapiens with 27 samples.

Results

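The genes described here are 9 members of the WNT pathway in IMR90 cells, an established line of human fetal lung fibroblasts: the ligands WNT2, WNT5A and WNT5B, the receptors FZD2 and FZD7, the secreted proteins SFRP1, DKK1 and DKK3, and the feedback gene AXIN2. They were found by symbol among 60534 gene IDs, 19310 of them protein coding, and all 9 passed the filter on low counts. WNT2 was chosen for its fall under thapsigargin in these same data, so its values in that comparison are a description and carry no test. The other genes were chosen by name, with earlier results of these data known.

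The study sequenced mRNA (RNA-seq) and ribosome-protected mRNA fragments, called footprints (Ribo-seq), in 5 states of the line, with 13 RNA-seq and 14 Ribo-seq libraries. Cycling cells were untreated and subconfluent (2 RNA-seq and 3 Ribo-seq libraries), and quiescent cells were arrested by contact inhibition (3 and 3). Irradiated cells were senescent, harvested 10 days after 15 Gy of ionizing radiation (3 and 3), and etoposide cells were senescent after 3 rounds of 50 µM etoposide, a topoisomerase poison that breaks DNA, across 10 days (3 and 3). Thapsigargin cells were cycling cells given 25 nM of the drug, a blocker of the pump that fills the endoplasmic reticulum with calcium, for 3 h (2 and 2). The labels call the first 4 states wild type and give no genotype for the thapsigargin cells, and all states come from 1 cell line. The labels do not say whether replicates were separate cultures, so p-values measure the spread between libraries, which may be technical.

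WNT proteins are secreted, lipid-carrying signals. On the receiving cell they bind Frizzled (FZD) receptors, and with an LRP co-receptor this stabilises beta-catenin, which turns on genes together with TCF/LEF factors. Other WNTs, WNT5A among them, act largely through beta-catenin-independent routes that shape cell movement and polarity. SFRP1 captures WNTs outside the cell, and DKK1 blocks the LRP co-receptor, while DKK3 is a divergent relative of DKK1 whose part in WNT signalling is less settled. AXIN2 is a beta-catenin target whose product helps destroy beta-catenin, so it is widely read as a gauge of that branch. In the developing lung, mesenchymal fibroblasts are a main source of WNT2 and WNT5A.

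The promoters of WNT2 and DKK1 are shown because these genes had the widest fall and the widest rise of mRNA among the members under thapsigargin. Each is the 250 bases before the annotated start, 5′ to 3′ on the gene's strand, from RefSeq on GRCh38.p14. WNT2 lies at chr7:117275451-117323058 and its window at chr7:117323059-117323308 on the minus strand. DKK1 lies at chr10:52314281-52317657 and its window at chr10:52314031-52314280 on the plus strand. Capitals mark matches to 4 short motifs searched on both strands: CTTTGA (a TCF/LEF core), TATAAA (the TATA box), TGACG (an ATF/CREB half-site) and CCAAT.
WNT2 promoter: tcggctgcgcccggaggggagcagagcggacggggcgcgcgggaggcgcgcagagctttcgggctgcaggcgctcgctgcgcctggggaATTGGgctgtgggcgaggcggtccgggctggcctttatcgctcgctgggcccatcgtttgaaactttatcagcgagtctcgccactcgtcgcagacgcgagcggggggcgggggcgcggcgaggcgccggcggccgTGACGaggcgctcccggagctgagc
DKK1 promoter: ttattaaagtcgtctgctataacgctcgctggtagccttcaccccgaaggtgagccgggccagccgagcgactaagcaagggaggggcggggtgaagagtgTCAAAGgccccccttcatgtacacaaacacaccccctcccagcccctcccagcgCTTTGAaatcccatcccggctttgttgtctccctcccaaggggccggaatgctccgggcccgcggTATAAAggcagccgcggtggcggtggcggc
The WNT2 window held ATTGG, the reverse complement of CCAAT, 161 bases upstream of the start, and TGACG 25 bases upstream. The DKK1 window held a TCF/LEF core in each direction, TCAAAG at 149 and CTTTGA at 95 bases upstream, and TATAAA at 30. No match overlapped another. Among 35116 RefSeq promoter windows of this length, 11.2% held the TCF/LEF core, 10.7% the TATA box, 21.2% TGACG and 32% CCAAT, and 0.977% held at least 2 TCF/LEF cores. These matches describe letters, not bound sites. Windows are described for 4 of the 9 members, and SFRP1 was left out of the search. Neither start of WNT5A (chr3:55465715-55505263) had a match, and those of WNT5B (chr12:1617056-1647212) had 1 each, TGACG in one and TTTATA, the TATA box reversed, in the other.

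Gene counts per library, in units of 1e6, ran from 20.64 to 57.12 in RNA-seq and from 1.937 to 20 in Ribo-seq, the 2 thapsigargin Ribo-seq libraries being the shallowest at 1.937 and 2.045. All 10 fibroblast markers were detected in every state, and the 6 epithelial markers together reached at most 0.790 CPM (counts per 1e6 counts, scaled by the TMM method) in RNA-seq. LMNB1 mRNA (lamin B1, lost in senescence) was called lower than in cycling cells in all 4 states, at log2 fold changes of -3.54 in irradiated, -4.15 in etoposide, -1.12 in quiescent and -0.90 in thapsigargin cells. MKI67, a proliferation marker, was lower in irradiated (-3.41) and etoposide cells (-4.60) and not called in quiescent cells (-0.94, edgeR adjusted p = 0.17). DDIT3 (CHOP, a gene of endoplasmic reticulum stress) was called higher in all 4 states, by 3.44 under thapsigargin and by 0.77 to 1.23 in the others. The thapsigargin libraries differ from the rest in ways the files show: 1.35% and 1.40% of their RNA-seq reads were unmapped, against 27.8% to 40.6% in the other RNA-seq libraries, 65.2% and 66.9% of their Ribo-seq reads mapped to several places, against 19.8% to 31.9% elsewhere, 12.8% and 11.4% of their uniquely mapped Ribo-seq reads fell in no gene, against 1.45% to 2.93%, their Ribo-seq files follow a longer gene list, and their medium is described without antibiotics. In every comparison with thapsigargin, treatment and these differences cannot be told apart. Quiescent Ribo-seq replicate 1 was the lowest of its group for each of the 9 genes, and each count of calls that moved without a library is given with and without it. In these bulk samples, fewer cells making a transcript and less transcript per cell cannot be told apart either.

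Against cycling cells, most of the 9 genes had less mRNA and fewer footprints in quiescent and in irradiated cells. A gene is called changed at an adjusted p under 0.05 (edgeR quasi-likelihood test, Benjamini-Hochberg over all genes tested). In quiescent cells 7 of 9 mRNAs were called, 6 lower and 1 higher, against 15.6% of the 13293 genes tested (10.4% lower, 5.18% higher). In irradiated cells 8 of 9 were called, 7 lower and 1 higher, against 34.9% of all genes (18.8% lower, 16.2% higher). In etoposide cells 3 of 9 were called, all lower, against 34.6% (17.8% lower, 16.8% higher), a share near the background in total. The gene that was higher was AXIN2 both times. Footprints gave 7 of 9 (6 lower) in quiescent cells, against 22.4% of 11766 genes (14.2% lower, 8.15% higher). They gave 8 of 9 (7 lower) in irradiated cells, against 40.5% (21.6% lower, 19.0% higher), and 2 of 9, both lower, in etoposide cells, against 33.9% (17.1% lower, 16.8% higher). AXIN2 passed the footprint filter only through its quiescent and irradiated libraries, so its higher footprint calls within these counts are a description. The median log2 fold change of the 9 mRNAs was -0.71, -0.95 and -0.29 in the 3 states, where the median of all genes was 0.02, 0.03 and 0.00.

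These counts rest partly on single libraries. Without cycling RNA-seq replicate 1 the mRNA count was 2 in quiescent and 4 in irradiated cells, and without cycling RNA-seq replicate 2 it was 4 in quiescent cells; each leaves 1 cycling library, assumed to vary like the other groups. The background moved too: without cycling RNA-seq replicate 1, 707 of 13607 genes were called in quiescent, 2778 in irradiated and 2612 in etoposide cells, against 2068, 4643 and 4593 of 13293 with it. The quiescent footprint count was 3 without cycling Ribo-seq replicate 3 and 3 without quiescent replicate 2, and stayed 7 without quiescent replicate 1. The etoposide footprint count was 1 without cycling Ribo-seq replicate 3, or without etoposide replicate 1 or 3.

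**Figure D1:**
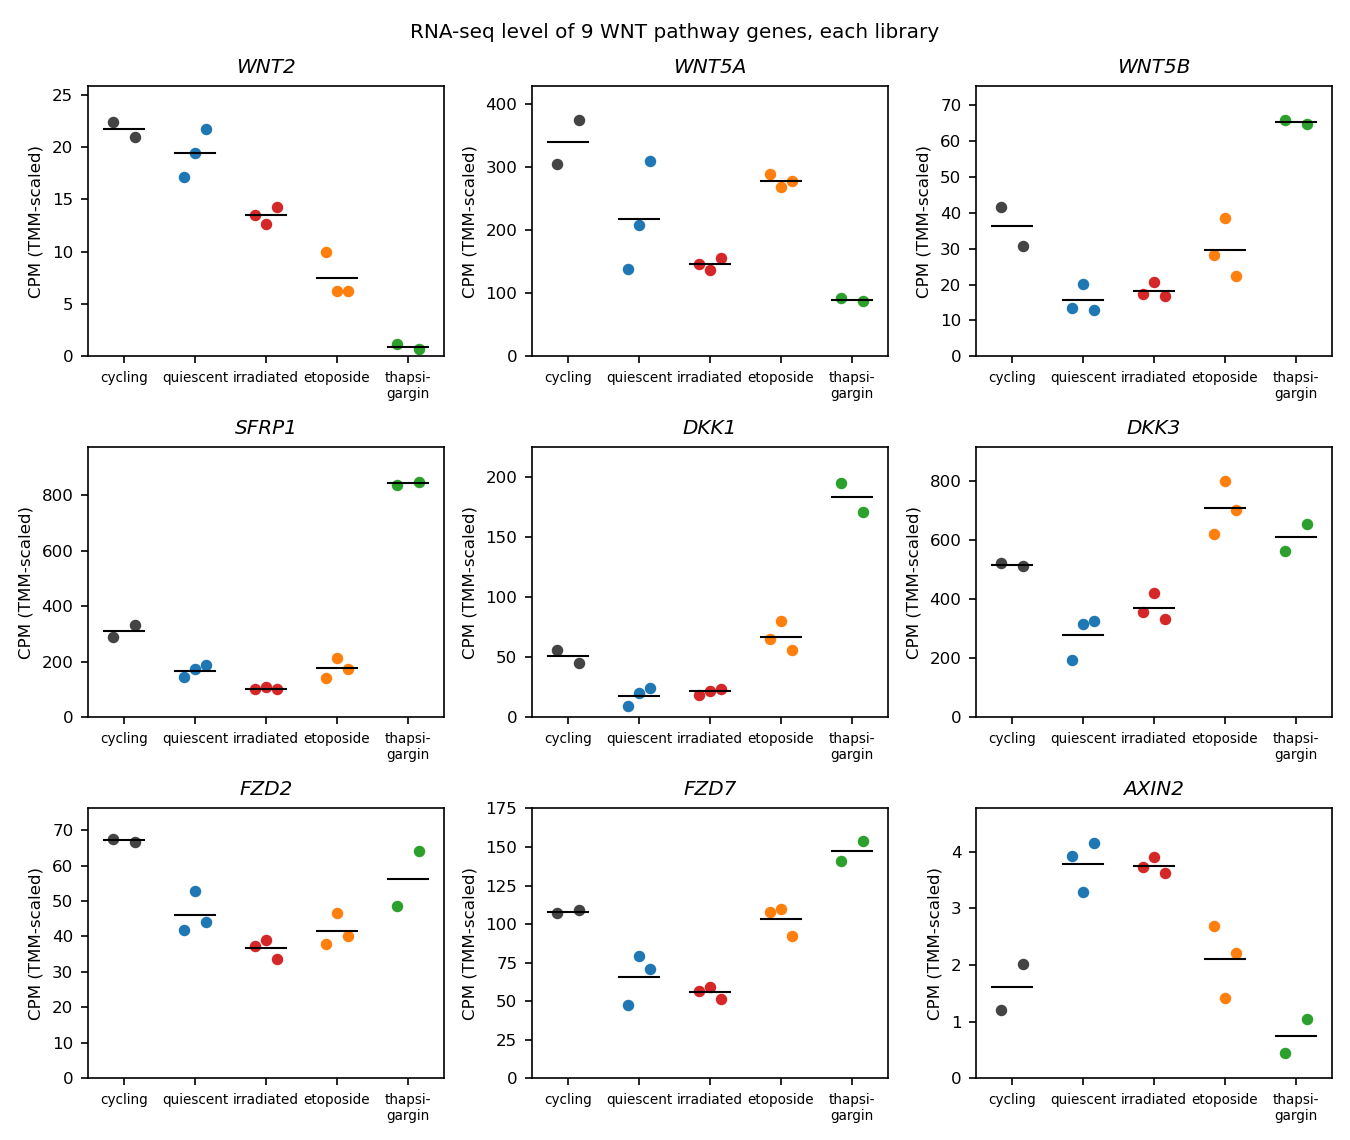
RNA-seq level of each of the 9 genes in CPM, scaled by TMM (y axis, each panel from 0), with 1 point per library, the 5 states along the x axis and the group mean as a bar. WNT2 is lowest in the 2 thapsigargin libraries (1.15 and 0.720 CPM), where SFRP1 (837 and 848 CPM) and DKK1 (195 and 171 CPM) are highest.

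WNT2, the ligand that lung mesenchyme is known for, stepped down from state to state. Its mRNA was at 22.4 and 21.0 CPM in cycling cells and at 17.1, 19.4 and 21.7 CPM in quiescent cells. It was at 13.5, 12.6 and 14.3 CPM in irradiated and at 10.0, 6.25 and 6.23 CPM in etoposide cells. Cycling and quiescent libraries overlapped, and below them irradiated, etoposide and thapsigargin libraries each lay apart from the state above. The log2 fold change against cycling cells was -0.69 ± 0.22 (SE; edgeR adjusted p = 0.0237) in irradiated and -1.54 ± 0.22 (adjusted p = 0.000113) in etoposide cells. In quiescent cells it was -0.16 ± 0.22 and not called (adjusted p = 0.684). The irradiated call was lost without cycling RNA-seq replicate 1 (adjusted p = 0.136) or 2 (0.0767), or without irradiated replicate 1 (0.0608) or 2 (0.0741).

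WNT2 footprints were at 14, 14.8 and 15.8 CPM in cycling cells, 7.19, 9.21 and 12.4 CPM in quiescent, 3.37, 4.18 and 9.85 CPM in irradiated and 6.45, 3.56 and 3.80 CPM in etoposide cells. All cycling libraries lay above all the others, while the irradiated and etoposide libraries overlapped. The irradiated values stand on 19, 11 and 34 counts and the etoposide values on 37, 23 and 22. Against cycling cells footprints were at -1.38 ± 0.37 on the log2 scale (edgeR adjusted p = 0.00899) in irradiated and -1.69 ± 0.36 (adjusted p = 0.00245) in etoposide cells. The irradiated footprint call was lost without irradiated Ribo-seq replicate 1 (adjusted p = 0.0568).

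WNT5A, the main beta-catenin-independent ligand of fibroblasts, was low in irradiated cells and near the cycling level in etoposide cells. Library values of its mRNA were 304 and 375 CPM in cycling, 138, 208 and 309 CPM in quiescent, 146, 137 and 155 CPM in irradiated and 289, 268 and 277 CPM in etoposide cells. The quiescent libraries spread from the irradiated range up to the cycling range, so quiescent cells overlapped all 3 of these states. Irradiated cells had a log2 fold change of -1.22 ± 0.23 against cycling cells (edgeR adjusted p = 0.00108). In quiescent cells it was -0.64 ± 0.23 and not called (adjusted p = 0.0793), and was called at -0.97 (adjusted p = 0.00276) without quiescent RNA-seq replicate 3. In etoposide cells it was -0.29, with an interval of 2 SE on each side from -0.75 to 0.17.

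Footprints of WNT5A showed the same order at a wider spacing. They were at 198, 247 and 242 CPM in cycling and 195, 228 and 215 CPM in etoposide cells, 2 states that overlapped. They were at 56.8, 70.3 and 62.3 CPM in irradiated cells, and at 45.9, 105 and 178 CPM in quiescent cells. The log2 fold change was -1.86 ± 0.34 in irradiated (edgeR adjusted p = 0.000675) and -1.06 ± 0.32 in quiescent cells (adjusted p = 0.028). The quiescent call was lost without cycling Ribo-seq replicate 2 (adjusted p = 0.0772) or 3 (0.0836) and without quiescent replicate 2 (0.0775).

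WNT5B, a close relative of WNT5A, followed the same division. WNT5B mRNA stood at 41.6 and 30.9 CPM in cycling and 28.2, 38.6 and 22.3 CPM in etoposide cells, which overlapped. It was at 13.6, 20.3 and 13 CPM in quiescent and 17.4, 20.6 and 16.9 CPM in irradiated cells, below every cycling and etoposide library. The log2 fold change was -1.21 ± 0.23 in quiescent (edgeR adjusted p = 0.00384) and -0.99 ± 0.23 in irradiated cells (adjusted p = 0.00496). Without cycling RNA-seq replicate 1 these were -0.98 (adjusted p = 0.0683) and -0.76 (adjusted p = 0.0846). Footprints of WNT5B gave -1.66 ± 0.32 (adjusted p = 0.00268) and -1.45 ± 0.35 (adjusted p = 0.00431), from 46.8, 30.0 and 45.9 CPM in cycling cells to 6.95, 13.8 and 17.9 CPM in quiescent and 13.1, 19.4 and 13 CPM in irradiated cells.

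The receptors FZD2 and FZD7, membrane proteins that bind WNTs, both had less mRNA in quiescent and irradiated cells, and FZD2 also in etoposide cells. FZD2 mRNA was at 67.6 and 66.6 CPM in cycling cells, above all libraries of the other states: 41.7, 52.7 and 44.0 CPM in quiescent, 37.4, 39.0 and 33.7 CPM in irradiated and 37.8, 46.5 and 40.2 CPM in etoposide cells. Etoposide libraries overlapped both other arrested states, and every quiescent library lay above every irradiated one. Against cycling cells FZD2 stood at -0.54 ± 0.15 on the log2 scale in quiescent (edgeR adjusted p = 0.0258), -0.87 ± 0.15 in irradiated (adjusted p = 0.000543) and -0.69 ± 0.15 in etoposide cells (adjusted p = 0.0028). The quiescent call is the least firm: it was lost without quiescent RNA-seq replicate 1 (adjusted p = 0.0768) or 3 (0.0536) and without either cycling library (0.154 and 0.115).

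FZD7 mRNA was at 107 and 109 CPM in cycling and 108, 109.5 and 92.1 CPM in etoposide cells, which overlapped. It was at 47.3, 79.6 and 70.7 CPM in quiescent and 56.3, 59.5 and 51.3 CPM in irradiated cells. Quiescent cells were at -0.71 ± 0.17 (edgeR adjusted p = 0.0136), irradiated cells at -0.95 ± 0.17 (adjusted p = 0.000812) and etoposide cells at -0.07, with an interval from -0.41 to 0.27. The quiescent call was lost without cycling RNA-seq replicate 1 (adjusted p = 0.0875) or 2 (0.0812). In footprints both receptors were low in irradiated cells. FZD2 was at 20.9, 25.1 and 21.4 CPM against 89.5, 62.2 and 75.8 CPM in cycling cells, -1.76 ± 0.34 on the log2 scale (edgeR adjusted p = 0.00111). FZD7 was at 36.9, 57.0 and 44.0 CPM against 160.3, 101 and 127 CPM, a change of -1.51 ± 0.40 (adjusted p = 0.0076). In quiescent cells FZD2 footprints were called at -0.98 ± 0.31 (edgeR adjusted p = 0.0358), and those of FZD7 were not (-0.93 ± 0.37, adjusted p = 0.0893). In etoposide cells neither FZD2 (-0.54 ± 0.31, adjusted p = 0.207) nor FZD7 footprints (0.08 ± 0.37, adjusted p = 0.891) were called.

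SFRP1, the decoy that binds WNT ligands outside the cell, was lower in all 3 arrested states and by most in irradiated cells. SFRP1 mRNA stood at 291 and 332 CPM in cycling cells, 144, 174 and 188 CPM in quiescent, 101, 108 and 100.3 CPM in irradiated and 142, 214 and 173 CPM in etoposide cells. Quiescent and etoposide libraries overlapped, all cycling libraries lay above them and all irradiated libraries below. The log2 fold changes were -0.88 ± 0.16 (edgeR adjusted p = 0.00253), -1.60 ± 0.16 (adjusted p = 5.21e-06) and -0.82 ± 0.16 (adjusted p = 0.00122). SFRP1 was also the gene called between irradiated and quiescent cells, at -0.71 ± 0.14 (edgeR adjusted p = 0.00363).

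SFRP1 footprints were at 239.8, 208 and 238 CPM in cycling, 46.2, 94.6 and 119 CPM in quiescent, 45.9, 58.9 and 40.3 CPM in irradiated and 121, 158 and 122 CPM in etoposide cells. Cycling cells were again highest, and here the lowest quiescent library reached the irradiated range. The log2 fold changes were -1.40 ± 0.25 (edgeR adjusted p = 0.00198), -2.25 ± 0.27 (adjusted p = 2.92e-05) and -0.77 ± 0.25 (adjusted p = 0.0295). The etoposide footprint call was lost without cycling Ribo-seq replicate 1 or 3 (adjusted p = 0.0771 in each) and without etoposide replicate 1 or 3 (0.0991 in each).

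DKK1, the secreted LRP blocker, was low in quiescent and irradiated cells and not in etoposide cells. DKK1 mRNA stood at 55.9 and 45.3 CPM in cycling and 64.8, 79.8 and 55.8 CPM in etoposide cells, which overlapped. It was at 9.28, 20.4 and 24.0 CPM in quiescent and 18.9, 22.0 and 23.9 CPM in irradiated cells, 2 overlapping states below every other library. The log2 fold change was -1.50 ± 0.28 (edgeR adjusted p = 0.00363) in quiescent and -1.23 ± 0.28 (adjusted p = 0.0043) in irradiated cells, the latter missing the threshold without cycling RNA-seq replicate 1 (adjusted p = 0.0512). Etoposide cells were at 0.40, with an interval from -0.18 to 0.98.

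DKK1 footprints were at 366, 251 and 223 CPM in cycling and 253, 283 and 217 CPM in etoposide cells. They were at 37.0, 91.3 and 61.7 CPM in quiescent and 78.2, 75.6 and 56.8 CPM in irradiated cells. On the log2 scale quiescent cells were at -2.15 ± 0.27 (edgeR adjusted p = 0.000325) and irradiated cells at -1.99 ± 0.28 (adjusted p = 8.52e-05), and no single library left out ended either call.

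DKK3, the divergent member of the Dickkopf family, was called lower in quiescent cells and was highest in etoposide cells. The mRNA was at 520.1 and 510.0 CPM in cycling, 193, 315 and 327 CPM in quiescent, 357, 420.1 and 333 CPM in irradiated and 621, 800.2 and 701 CPM in etoposide cells. None of these 4 states overlapped. Quiescent cells were at -0.89 ± 0.19 on the log2 scale (edgeR adjusted p = 0.0076), irradiated cells at -0.48 ± 0.19 (adjusted p = 0.0715, not called) and etoposide cells at 0.46 ± 0.20 (adjusted p = 0.0893, not called). Fitting the 2 groups alone called both of the last, at -0.50 (adjusted p = 0.000657) and 0.45 (adjusted p = 0.013). Without cycling RNA-seq replicate 1 the quiescent call was lost (adjusted p = 0.0632).

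DKK3 footprints were at 242, 249.7 and 362 CPM in cycling, 60.4, 158 and 208 CPM in quiescent, 173, 172 and 189.5 CPM in irradiated and 421, 494 and 426 CPM in etoposide cells. The etoposide libraries lay above all others and the quiescent and irradiated libraries overlapped. The quiescent log2 fold change of -1.0 ± 0.31 was called (edgeR adjusted p = 0.031), but not without cycling Ribo-seq replicate 3 (adjusted p = 0.138) or quiescent replicate 2 (0.0548).

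AXIN2, the beta-catenin feedback gene, went the other way. AXIN2 mRNA stood at 1.20 and 2.02 CPM in cycling cells, 3.93, 3.28 and 4.15 CPM in quiescent, 3.72, 3.91 and 3.62 CPM in irradiated and 2.69, 1.42 and 2.21 CPM in etoposide cells. Quiescent and irradiated libraries overlapped and lay above all others, and etoposide libraries overlapped the cycling ones. The log2 fold change was 1.25 ± 0.37 (edgeR adjusted p = 0.0347) in quiescent and 1.24 ± 0.37 (adjusted p = 0.0185) in irradiated cells. Both calls were lost without cycling RNA-seq replicate 1 (adjusted p = 0.336 and 0.209), and the quiescent call was lost without any of 4 of the 5 libraries compared, quiescent replicate 2 being the exception.

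AXIN2 footprints were few: 11, 6 and 4 counts in cycling cells, 24, 28 and 49 in quiescent cells, 12, 5 and 6 in irradiated cells, and 8, 9 and 7 in etoposide cells. In CPM these were 1.13, 0.424 and 0.423, then 1.15, 1.61 and 2.51, then 2.13, 1.90 and 1.74, then 1.40, 1.39 and 1.21. Every arrested library lay above every cycling library. The footprint changes in quiescent (1.43 ± 0.43, edgeR adjusted p = 0.0304) and irradiated cells (1.58 ± 0.51, adjusted p = 0.0253) were each lost when one of several single libraries was left out, with adjusted p up to 0.136 and 0.115. AXIN2 passed the footprint filter only through the libraries of these states, where it was called higher, so the calls are a description. In the fit of etoposide and cycling Ribo-seq libraries alone AXIN2 did not pass, and 8 of the 9 genes were tested. With the replicate number as a block, which pairs the cycling and quiescent Ribo-seq libraries, the quiescent footprint change was 1.42 and was not called (adjusted p = 0.0504).

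**Figure D2:**
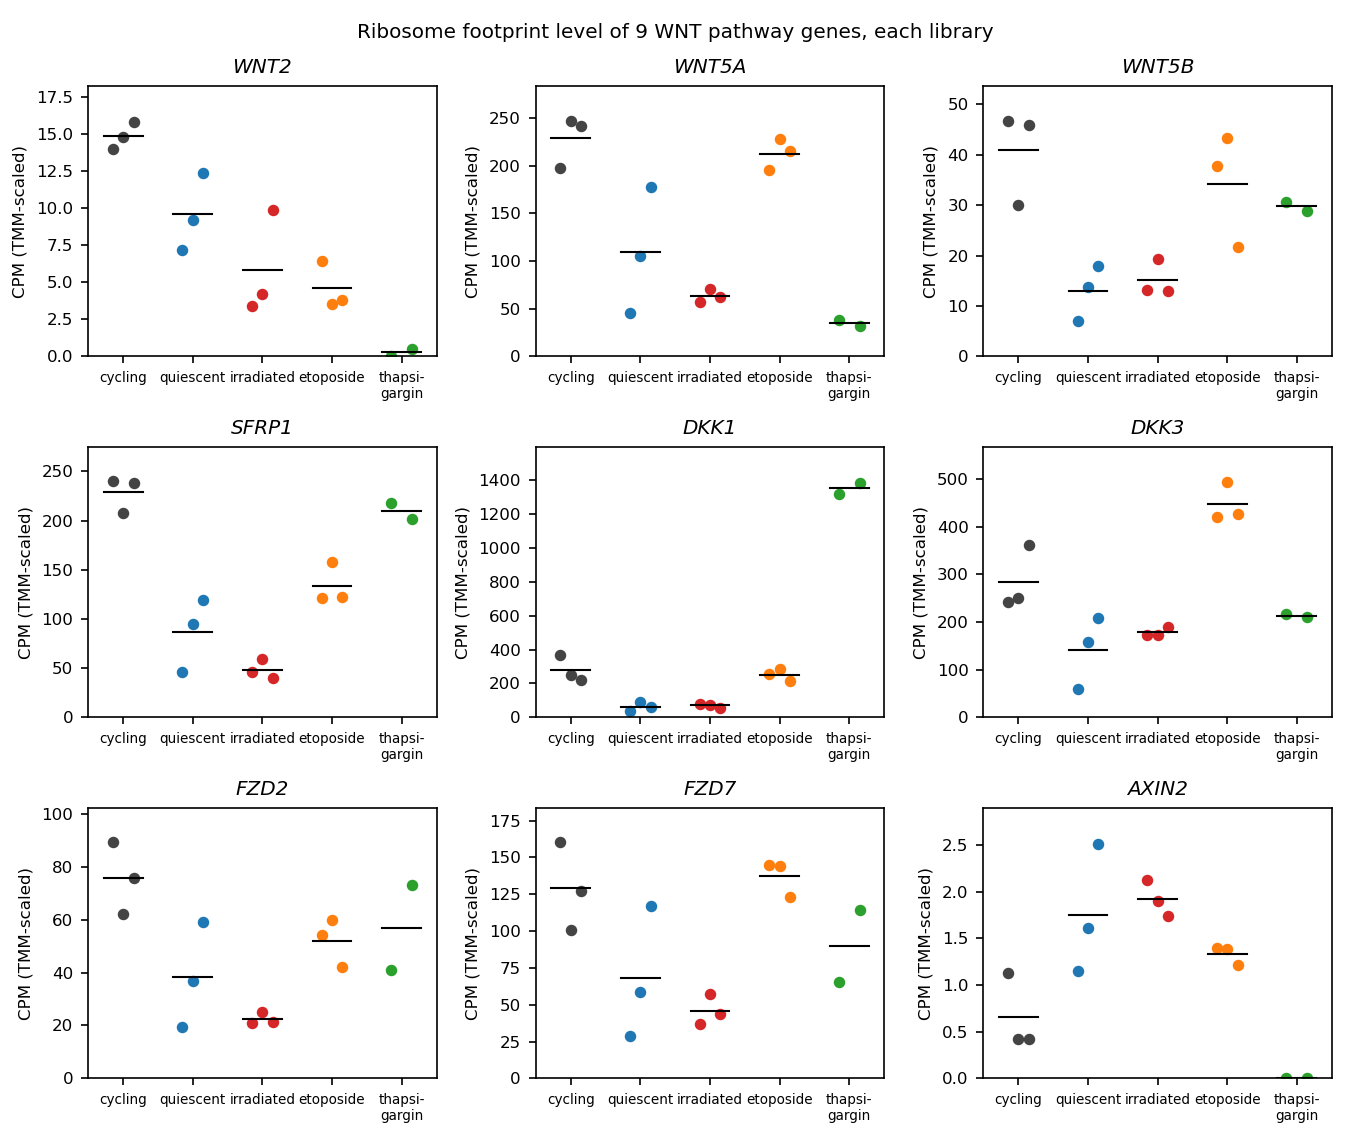
Footprint level of each of the 9 genes in CPM, scaled by TMM (y axis, each panel from 0), with 1 point per Ribo-seq library, the 5 states along the x axis and the group mean as a bar. For DKK1 the irradiated libraries (56.8 to 78.2 CPM) sit below all cycling libraries (223 to 366 CPM), and the 2 thapsigargin libraries (1319 and 1383 CPM) sit above all others.

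The 2 ways to senescence differed in these genes. Compared directly, irradiated cells had less mRNA than etoposide cells for 6 of the 9 genes and more for 1, WNT2, against 22.6% of all genes called (12.9% lower, 9.67% higher). The fall was widest for DKK1, at -1.63 ± 0.26 on the log2 scale (edgeR adjusted p = 0.000805), or 3.09-fold. DKK3 was at -0.94 ± 0.18 (adjusted p = 0.00211), WNT5A at -0.93 ± 0.21 (adjusted p = 0.00619), FZD7 at -0.89 ± 0.16 (adjusted p = 0.00147) and SFRP1 at -0.78 ± 0.14 (adjusted p = 0.00173). WNT2 was higher in irradiated cells by 0.85 ± 0.20 (adjusted p = 0.00802). FZD2 (-0.18, interval -0.46 to 0.10) and AXIN2 (0.83, interval 0.23 to 1.43) were not called. WNT5B was called at -0.70 ± 0.21 (adjusted p = 0.0304), and was not called without irradiated RNA-seq replicate 1 or 3 or etoposide replicate 1 or 2 (adjusted p from 0.053 to 0.17).

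Footprints between the senescent states were lower in irradiated cells for 7 of 9 genes, against 22.5% of all genes called (13.7% lower, 8.82% higher). DKK1 was at -1.84 ± 0.28 (edgeR adjusted p = 0.000731), WNT5A at -1.76 ± 0.34 (adjusted p = 0.00261), FZD7 at -1.59 ± 0.40 (adjusted p = 0.0112) and SFRP1 at -1.47 ± 0.27 (adjusted p = 0.00203). DKK3 was at -1.33 ± 0.31 (adjusted p = 0.00819), FZD2 at -1.22 ± 0.34 (adjusted p = 0.0207) and WNT5B at -1.20 ± 0.35 (adjusted p = 0.0245). For these 7 genes every irradiated library lay below every etoposide library. The share of all genes separated in this way was not counted, so the separation is a description. WNT2 footprints were at 0.31, with an interval from -0.51 to 1.13, so the mRNA difference was not detectable in footprints at this depth. Without irradiated Ribo-seq replicate 1, the deepest of its group, those of WNT5B (adjusted p = 0.106), FZD2 (0.0821) and FZD7 (0.06) were lost, leaving 4. The WNT5B and FZD2 calls were also lost without irradiated replicate 3 (adjusted p = 0.0917 and 0.0698) or etoposide replicate 1 (0.0698 and 0.0527), and WNT5B without etoposide replicate 2 (0.0768).

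Between irradiated and quiescent cells few of these genes were called. Of mRNAs, 1 of 9 was called, SFRP1, which was lower, against 18.7% of all genes (9.70% lower, 9.01% higher). Of 9 footprint levels 1 was called, again SFRP1 (-0.85 ± 0.27, edgeR adjusted p = 0.0476), against 14.6% (7.33% lower, 7.22% higher). The mRNA count was 3 without quiescent RNA-seq replicate 1. The footprint count was 4 without quiescent Ribo-seq replicate 1 and 0 without quiescent replicate 2 or 3 or irradiated replicate 1 or 2, so this comparison is not settled by these libraries. Etoposide and quiescent cells differed in 6 of 9 mRNAs, 4 higher and 2 lower in etoposide, against 41.7% of all genes (21.1% higher, 20.6% lower). The higher ones were DKK1 (1.90 ± 0.26, edgeR adjusted p = 9.63e-05), DKK3 (1.35 ± 0.18, adjusted p = 6.54e-05), WNT5B (0.92 ± 0.21, adjusted p = 0.00361) and FZD7 (0.65 ± 0.16, adjusted p = 0.00492). WNT2 (-1.37 ± 0.20, adjusted p = 0.000138) and AXIN2 (-0.85 ± 0.30, adjusted p = 0.0384) were lower. The AXIN2 call was lost without quiescent RNA-seq replicate 1 or 3 or etoposide replicate 2 or 3 (adjusted p from 0.0764 to 0.159). In footprints 6 of 9 were called, 5 higher and 1 lower, against 35.8% (19.0% higher, 16.8% lower), and 3 without quiescent replicate 2 or without etoposide replicate 2 or 3.

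**Figure D3:**
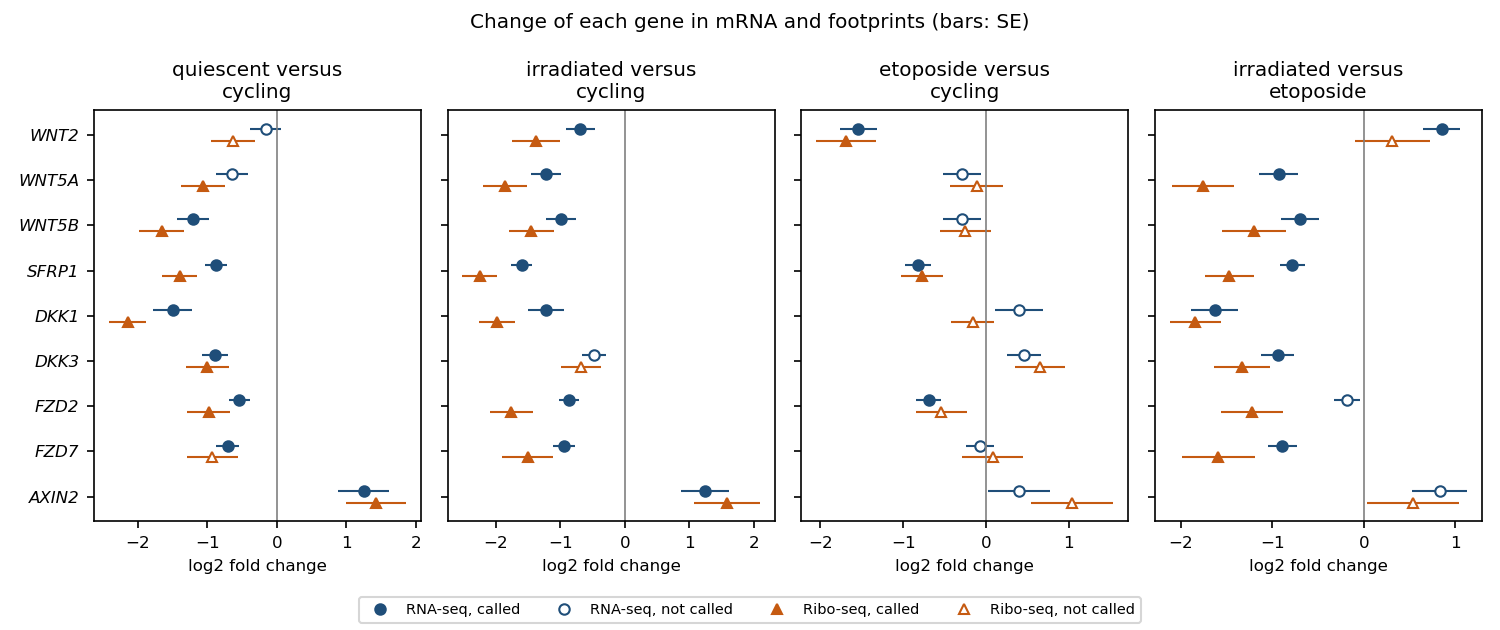
Log2 fold change of each gene (x axis) with its SE as a bar, for mRNA (blue circles) and footprints (orange triangles), in 4 comparisons; filled symbols are called at an adjusted p under 0.05. In irradiated cells DKK1 is at -1.23 in mRNA and -1.99 in footprints against cycling cells, and at -1.63 and -1.84 against etoposide cells.

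Under thapsigargin WNT5A mRNA fell and the mRNAs of WNT5B, SFRP1 and DKK1 rose. WNT2 mRNA, the value that chose this gene, was at 1.15 and 0.720 CPM (47 and 41 counts) against 22.4 and 21.0 CPM (614 and 404 counts) in cycling cells. Pooled over libraries the cycling level was 24.3 times the treated one. WNT2 footprints were 0 and 1 count against 136, 209 and 149 counts, a pooled ratio of 55.3 that rests on 1 treated count. No test or interval is given for WNT2 here.

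Of the other 8 genes, 4 mRNAs were called, 3 higher and 1 lower, where 24.5% of all genes were called (11.7% higher, 12.8% lower). WNT5A fell from 304 and 375 CPM to 92.1 and 87.7 CPM, -1.92 ± 0.26 on the log2 scale (edgeR adjusted p = 0.0002). SFRP1 rose from 291 and 332 CPM to 837 and 848 CPM (1.44 ± 0.18, adjusted p = 8.02e-05). DKK1 rose from 55.9 and 45.3 CPM to 195 and 171 CPM (1.85 ± 0.32, adjusted p = 0.00107). In all 3 genes the treated libraries lay outside the range of every other state, a separation whose share over all genes was not counted. WNT5B, the relative of WNT5A, was higher, from 41.6 and 30.9 CPM to 65.9 and 64.9 CPM (0.85 ± 0.26, edgeR adjusted p = 0.0273). WNT5B missed the threshold without cycling RNA-seq replicate 2 (adjusted p = 0.21) or thapsigargin replicate 1 (0.0624) or 2 (0.0672).

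The receptors and DKK3 were not called. DKK3 was at 562 and 655 CPM (0.24, interval -0.18 to 0.66), FZD2 at 48.5 and 64.0 CPM (-0.26, interval -0.58 to 0.06) and FZD7 at 141 and 154 CPM (0.45, interval 0.07 to 0.83). AXIN2 was at 0.439 and 1.05 CPM, 18 and 60 counts, below both cycling libraries. Its log2 fold change of -1.05 ± 0.42 was not called (edgeR adjusted p = 0.0837), and was called at -1.82 (adjusted p = 0.0189) without thapsigargin RNA-seq replicate 2.

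Footprints under thapsigargin were called for 2 of the 8 genes, 1 higher and 1 lower, against 44.6% of all genes (21.1% higher, 23.6% lower). DKK1 footprints were at 1319 and 1383 CPM against 366, 251 and 223 CPM, 2.27 ± 0.29 on the log2 scale (edgeR adjusted p = 4.51e-05). WNT5A footprints were at 38.3 and 31.5 CPM against 198, 247 and 242 CPM (-2.71 ± 0.44, adjusted p = 0.000293). Both lay outside the range of every other state, again with no share over all genes counted. SFRP1, whose mRNA had risen, was at 218 and 202 CPM against 239.8, 208 and 238 CPM (-0.12, interval -0.70 to 0.46). WNT5B was at 30.7 and 28.9 CPM (-0.46, interval -1.24 to 0.32). No AXIN2 footprint was counted in either treated library, and 3 counts, the limit that a count of 0 allows, would be 0.804 CPM over both, above the pooled cycling level of 0.630 CPM. A fall of AXIN2 footprints could thus not be resolved at this depth. The fitted log2 fold change of -5.54 ± 2.54 was not called (edgeR adjusted p = 0.0924).

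**Figure D4:**
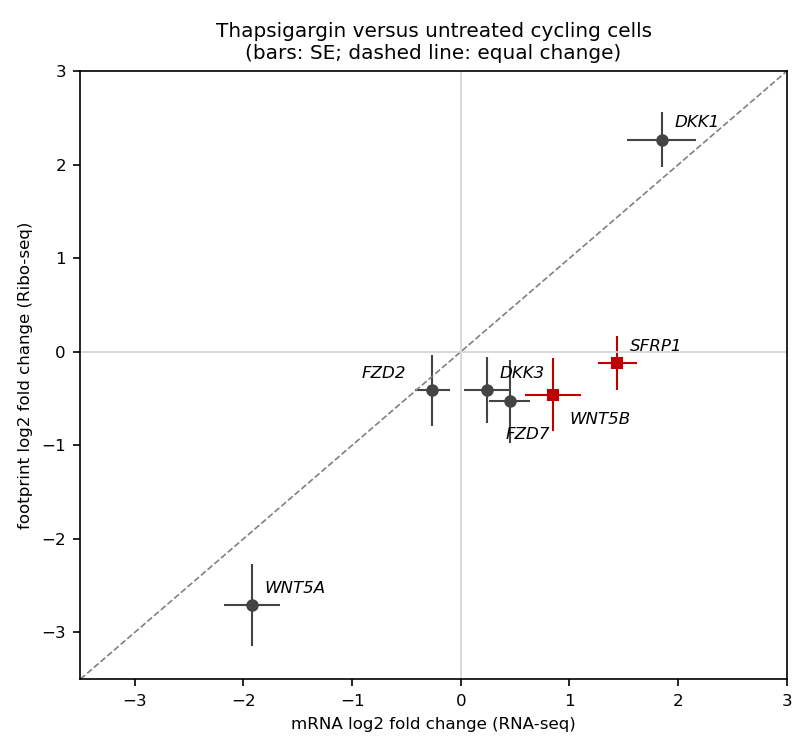
Log2 fold change under thapsigargin against cycling cells in mRNA (x axis) and footprints (y axis) for 7 of the 9 genes, with SE bars; the dashed line is equal change, and red squares mark genes called lower in the ratio of footprints to mRNA. SFRP1 is at 1.44 in mRNA and -0.12 in footprints, while DKK1 (1.85 and 2.27) and WNT5A (-1.92 and -2.71) lie nearer the line.

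Translational efficiency (TE), the ratio of footprints to mRNA, fell for SFRP1 and WNT5B under thapsigargin. These were 2 of 8 genes called, both lower, against 20.7% of 11715 genes called (12.9% lower, 7.87% higher), a share near the background. For SFRP1 the ratio of mean CPM was 0.736 in cycling and 0.249 in treated cells, a log2 change of -1.61 ± 0.34 (edgeR interaction test, adjusted p = 0.00187), where the median of all genes was -0.15. For WNT5B the ratio went from 1.13 to 0.456 (-1.36 ± 0.47, adjusted p = 0.0432). The SFRP1 call held in each of 16 refits, from -1.70 to -1.52, whereas the WNT5B call was lost in 9 of 16. Leaving out either cycling or either thapsigargin RNA-seq library, cycling Ribo-seq replicate 1 or 3, or either thapsigargin Ribo-seq library ended the WNT5B call. DKK1 kept a ratio of 7.38 against 5.53 (0.37, interval -0.49 to 1.23), and WNT5A was at -0.85 ± 0.48 and not called (adjusted p = 0.217). FZD7 was at -1.03 ± 0.49 (adjusted p = 0.137), and was called at -1.54 (adjusted p = 0.0465) without thapsigargin Ribo-seq replicate 2. WNT2 had 1 footprint count, too few for a ratio.

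Among quiescent, irradiated and etoposide cells no member had a called change in TE against cycling cells, and none between the senescent states. In edgeR and in DESeq2 alike the count was 0 of 9 in each of these 4 comparisons, where edgeR called 0.00854% (all higher), 0.0512% (0.0427% higher, 0.00854% lower), 0.0683% (0.0256% higher, 0.0427% lower) and 0% of all genes. At an unadjusted p under 0.05 the count was 0 in quiescent, 1 (FZD2) in irradiated and 0 in etoposide cells, and 1 (FZD2) between irradiated and etoposide. The FZD2 ratio was 1.13 in cycling, 0.613 in irradiated and 1.26 in etoposide cells, a log2 change of -0.80 ± 0.37 against cycling (edgeR adjusted p = 0.72) and -0.91 ± 0.36 against etoposide (adjusted p = 0.664). In a fit of irradiated and cycling libraries alone, FZD2 (-0.95, adjusted p = 0.00339), WNT5A (-0.71, adjusted p = 0.00912) and SFRP1 (-0.71, adjusted p = 0.00881) were called. In a fit of the senescent libraries alone FZD2 (-1.09, adjusted p = 0.00139), WNT5A (-0.87, adjusted p = 0.000545) and FZD7 (-0.75, adjusted p = 0.0109) were called. The fits of 2 groups take the spread from those groups, and called 756 and 606 genes in all, against 6 and 0 with all states. Of those calls 6.2% and 2.6% were higher, so nearly all genes called there were lower, as the 9 genes' calls were.

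The rest of the pathway was read from 5 lists with 95 genes, 66 of them tested in RNA-seq. The other receptors and secretion genes (17 of 21 tested) moved mostly down in irradiated cells: 9 were called lower and none higher against cycling cells, where 18.8% of all genes were lower and 16.2% higher. Against etoposide cells the numbers were the same, where 12.9% of all genes were lower and 9.67% higher. Their median log2 fold change was -0.55 and -0.68, where all genes had 0.03 and 0.06. In quiescent cells 4 were called lower (10.4% of all genes were), a number that ranged from 1 (only these groups fitted) to 7 (DESeq2) in other fits. In etoposide cells 3 were higher and 3 lower (16.8% and 17.8% of all genes). Under thapsigargin 2 were higher and 6 lower (11.7% and 12.8% of all genes), with a median of -0.38. Of 14 footprint levels tested there, none was higher and 7 were lower (21.1% and 23.6% of all genes). Of the 29 intracellular genes, such as the scaffolds and kinases around beta-catenin, 5 were called in quiescent (5 higher), 5 in irradiated (4 higher) and 6 in etoposide cells (2 higher). Over all genes 15.6%, 34.9% and 34.6% were called, so the first share was near the background in total and the later shares were below it. By direction, 5.18% of all genes were called higher in quiescent cells and 10.4% lower. The 5 of 29 called higher there were thus above the share for that direction, with none lower.

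WLS, the carrier that takes WNT proteins to the cell surface, stood at 73.7 ± 6.93 CPM (SD, n = 3) in irradiated and 274 ± 32.4 CPM (n = 3) in etoposide cells, -1.89 ± 0.17 on the log2 scale (edgeR adjusted p = 3.86e-05). FZD8, another Frizzled receptor, was at 1.66 ± 0.202 CPM in irradiated cells, against 6.52 ± 1.20 CPM in etoposide (-1.96 ± 0.30, adjusted p = 0.000587) and 8.68 ± 0.713 CPM in cycling cells (n = 2; -2.38 ± 0.32, adjusted p = 8.38e-05). In quiescent cells FZD4 (-1.26 ± 0.20, adjusted p = 0.00134), FZD5 (-1.23 ± 0.30, adjusted p = 0.0141) and FZD9 (-1.75 ± 0.36, adjusted p = 0.00558) were lower, the last 2 on at most 74 counts per state. LEF1, a TCF/LEF factor and itself a WNT target, was higher in quiescent cells at 4.99 ± 0.0802 CPM (n = 3) against 1.71 ± 0.580 CPM (n = 2; 1.52 ± 0.34, adjusted p = 0.0086).

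Of 16 other WNT ligands 5 could be tested, and 3 of these were called higher in etoposide than in cycling cells, where 16.8% of all genes were. Of 17 other secreted modulators 6 could be tested, with 2 higher and 1 lower. Over all genes 34.6% were called in that comparison, 16.8% higher and 17.8% lower. WNT2B, the nearest relative of WNT2, was at 3.87 ± 0.362 CPM (SD, n = 3) against 0.439 ± 0.260 CPM (n = 2; log2 fold change 3.19 ± 0.79, edgeR adjusted p = 0.00663), and WNT4 had 47 counts over 3 libraries against 2 over the cycling pair (adjusted p = 0.048). WNT16 was at 5.75 ± 1.20 CPM in etoposide and 0.779 ± 0.341 CPM in irradiated cells (-2.88 ± 0.29, adjusted p = 6.65e-05). RSPO3, a secreted agonist that keeps Frizzled receptors on the surface, had 8 counts in cycling cells, 236 in irradiated and 1564 in etoposide cells, with mean levels of 0.200 ± 0.231, 3.05 ± 1.30 and 15.4 ± 3.54 CPM. Its log2 fold change was 4.09 ± 0.88 (adjusted p = 0.00267) in irradiated and 6.43 ± 0.84 (adjusted p = 5.62e-05) in etoposide cells, and -2.34 ± 0.48 (adjusted p = 0.00374) between them. WNT4, RSPO3 and WNT2B had 2, 8 and 19 counts over the cycling pair, so they passed the filter on low counts through other states. Their higher calls against cycling cells, and the counts of ligands and modulators called higher, are thus a description. NDP, an agonist unrelated to WNTs in sequence, was lower in irradiated cells on 15 counts against 55 (-2.58 ± 0.44, adjusted p = 0.000472).

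WNT target and feedback genes did not move as 1 group. Of 14 tested, 2 were called higher and none lower in quiescent, 2 higher and 4 lower in irradiated, 5 higher and 3 lower in etoposide and 2 higher and 5 lower in thapsigargin cells. Over all genes 15.6%, 34.9%, 34.6% and 24.5% were called in these comparisons. The quiescent and irradiated shares of the 14 were near those, and the etoposide and thapsigargin shares were above them. Called higher were 5.18%, 16.2%, 16.8% and 11.7% of all genes, and called lower 10.4%, 18.8%, 17.8% and 12.8%. CCND1 (cyclin D1) was higher in irradiated cells, at 3304 ± 88.4 CPM (SD, n = 3) against 839 ± 80.7 CPM (n = 2; log2 fold change 1.98 ± 0.15, edgeR adjusted p = 6.38e-07). CYP26B1, which breaks down retinoic acid, had 54 counts in etoposide cells and none in cycling cells, at least 8.21-fold higher against 3 counts over the cycling libraries. With no cycling counts it passed the filter through other states, so its place among the 5 called higher in etoposide cells is a description. Under thapsigargin CCN4 (-3.28 ± 0.25, adjusted p = 2.34e-06) and APCDD1 (-3.19 ± 0.44, adjusted p = 0.000209), a membrane inhibitor of the pathway, were lower. There WNT16 (3.07 ± 0.36, adjusted p = 5.46e-05) and RSPO3 (4.05 ± 0.90, adjusted p = 0.00567) were higher. The RSPO3 call is a description, as the gene passed the filter through states other than cycling.

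Over the 13 RNA-seq libraries the members fell into patterns that can be described by Pearson correlation of log2 CPM, where the libraries share states and scaling, so the values carry no p. DKK1 and FZD7 had r = 0.93, DKK1 and WNT5B 0.93, and WNT5B and FZD7 0.91, while AXIN2 ran opposite to WNT5B (-0.94) and to DKK1 (-0.89). WNT2 had 0.73 with AXIN2 and 0.65 with WNT5A. With DKK1, WNT5B, SFRP1, FZD7, DKK3 and FZD2 it had -0.8, -0.75, -0.74, -0.65, -0.54 and -0.17. The 13 libraries include those of thapsigargin, whose low WNT2 values chose the gene and whose treatment cannot be told apart from other library differences. Of all 13293 genes, those most like WNT2 were PCGF3 (0.981), TTC30B (0.978), NFIB (0.976), CASP8 (0.972) and LSM12 (0.967). For DKK1 they were FST (0.985), KDSR (0.982) and SLC19A2 (0.980), for WNT5A PDGFRA (0.970), SLC25A15 (0.959) and PTGS1 (0.957), and for SFRP1 ATP10A, HEY1 and SQLE (0.974 each). For AXIN2 they were ADH1B (0.953), IL16 (0.946) and SATB1 (0.945).

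Markers of other cells moved with some states. The 5 endothelial markers summed to 18.2 to 24.4 CPM in cycling, 14.5 to 28.7 in quiescent, 33.8 to 37.1 in irradiated, 57.4 to 90.2 in etoposide and 4.98 to 5.32 in thapsigargin RNA-seq libraries. TEK was the highest of them, at 67.6 CPM on average in etoposide and 3.21 CPM in thapsigargin cells. In RNA-seq the defining markers PECAM1 and CDH5 were at 0 in cycling and thapsigargin cells and at most 0.458 and 0.148 CPM in any library. The 5 haematopoietic markers summed to at most 0.256 CPM in cycling and to 1.01 to 1.27 CPM in etoposide cells, of which PTPRC gave 0.724. The 5 lung mesenchyme markers summed to 199 to 287 CPM in cycling and 163 to 189.8 CPM in thapsigargin RNA-seq libraries. MEOX2 mRNA was at 0 in cycling, quiescent and irradiated cells, while all 5 had footprint counts in those states. The part of these genes in the differences above was not tested.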

How the data were processed

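The deposited files hold 1 table of gene counts per library, and the submitters' processing notes name hg38, STAR 2.7.10b, DESeq2 1.36.0 and bcl2fastq. Counts as the authors deposited them were used unnormalized, in the column of 1 strand that the members' rule names for each assay; unmapped, multimapping, no-feature and ambiguous totals were left out. RNase time and 1 fragment label differ between label fields, and titles set the groups. Symbols came from Ensembl IDs, 60534 IDs stood in both gene lists, and 19310 protein-coding genes entered. Genes passing edgeR's filterByExpr by group were kept (13293 in RNA-seq, 11766 in Ribo-seq and 11715 for TE).

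Each assay was fitted once over all 5 states with edgeR 4.0.16 in R 4.3.3 (TMM, robust quasi-likelihood test), and TE by a term for state within library type, over both assays together. The SE is the log2 fold change divided by the root of F, and intervals run 2 SE to each side. CPM are scaled by TMM. Fits were tested on simulated data, and DESeq2 1.42.0 served as an alternative, as did other size factors, filters, strands, biotypes, 2-group fits, a replicate block and single libraries left out.

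Members and gene lists were chosen with earlier results of these data known. Named pathway genes are, per RNA-seq comparison, the up to 4 called genes with the largest log2 fold change in size; likeness used log2 CPM with a prior count of 2. Replicates differed by more than sampling noise (between 1.90 and 120.1 in chi-square divided by its degrees of freedom). Pooled count ratios are descriptions only. Levels were not compared between genes. Replicate numbers were checked for pairing by correlating deviations from group means: all 3 same-numbered pairs of cycling and quiescent Ribo-seq libraries exceeded 0.1 (0.15, 0.27 and 0.26), and no other comparison of states with 3 pairs did so throughout. Between assays the 3 etoposide pairs did (0.13, 0.38 and 0.20), and the other states with 3 pairs did not.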

Additional observations from a re-analysis of the deposited data

Results flagged for a closer look

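The effects of the 2 senescence treatments, each against the same cycling cells, differed by the direct test of irradiated against etoposide cells for 7 mRNAs. The difference in log2 fold change was 0.85 for WNT2, -0.93 for WNT5A, -0.70 for WNT5B and -0.78 for SFRP1. It was -1.63 for DKK1, -0.94 for DKK3 and -0.89 for FZD7. WNT2 was thus the mRNA that was lower in etoposide cells, and the other 6 were lower in irradiated cells.

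In footprints the difference was -1.76 for WNT5A, -1.20 for WNT5B, -1.47 for SFRP1 and -1.84 for DKK1. It was -1.33 for DKK3, -1.22 for FZD2 and -1.59 for FZD7. Both contrasts share the cycling libraries, which cancel in the difference.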

How the results depend on the processing

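Of 2381 refitted values of the 9 genes, 109 lost a call, 37 gained one and 2231 stayed the same. The other 4, all WNT2 under thapsigargin, moved by more than the SE of the main fit. Values counted as the same kept their side of the threshold. For WNT2 under thapsigargin, which has no test, they stayed within that SE. No called value changed sign, and of 1404 values not called in either fit 58 did. Fits of only the 2 groups compared moved the most counts of called genes among the 9. In mRNA they gave 4 in quiescent against cycling (7 with all states), 5 in etoposide against cycling (3) and 2 in irradiated against quiescent (1). In footprints they gave 3 in quiescent (7) and 4 in etoposide against cycling (2), and in TE 3 in irradiated against cycling and 3 against etoposide (0 in each). The DESeq2 Wald test gave 3 mRNAs in irradiated against quiescent. With no filter on low counts 4 footprint levels were called in quiescent against cycling. The single footprint call of irradiated against quiescent became 0 with DESeq2 size factors, no filter, the 2 groups alone or the replicate block. DESeq2 size factors left 1 TE call under thapsigargin.

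With single libraries left out, mRNA counts ran from 2 to 7 in quiescent, 4 to 8 in irradiated, 3 to 3 in etoposide and 3 to 4 in thapsigargin against cycling cells, 1 to 3 in irradiated and 5 to 6 in etoposide against quiescent, and 6 to 7 between the senescent states. Footprint counts ran from 3 to 7, 6 to 8, 1 to 2 and 2 to 2 against cycling, 0 to 4 and 3 to 7 against quiescent, and 4 to 7 between the senescent states. TE counts ran from 1 to 2 under thapsigargin and stayed at 0 in the other 4 comparisons. Leaving out a cycling or thapsigargin RNA-seq library leaves 1 sample, assumed to vary like the other groups. The described WNT2 change under thapsigargin was -4.90 or -4.22 in mRNA without either treated library. The cause of these shifts was not tested.

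Same-numbered libraries correlated across states from -0.19 to 0.47 in RNA-seq and -0.19 to 0.27 in Ribo-seq, and in most comparisons the numbers do not pair them. The exception is cycling with quiescent Ribo-seq. The replicate block gave 3 TE calls under thapsigargin (2 without it) and 0 footprint calls for irradiated against quiescent. It ended the AXIN2 calls in quiescent against cycling cells (mRNA 1.23, adjusted p = 0.0677; footprints 1.42, 0.0504) and in etoposide against quiescent mRNA (-0.85, 0.0571). It added WNT5A in quiescent (-0.79, 0.034) and DKK3 in irradiated mRNA (-0.51, 0.0411), and WNT5A in thapsigargin TE (-0.81, 0.0306).

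Over all genes, the 2-group fits called 852 mRNAs in quiescent (2068 with all states) and 1512 under thapsigargin (3259). They called 6020 footprint levels in etoposide (3986) and 4134 between the senescent states (2653). For TE they called 0 in quiescent (1), 756 in irradiated (6), 28 in etoposide (8), 1053 under thapsigargin (2430) and 606 between the senescent states (0). The DESeq2 Wald test called 6, 32, 40 and 6 for TE in quiescent, irradiated, etoposide and between the senescent states, and its share of higher calls under thapsigargin was 48.0% against 37.9%. With no filter, 32.1% of calls between irradiated and quiescent footprints were higher, against 49.6%. Without cycling RNA-seq replicate 1 the mRNA counts against cycling were 707 in quiescent, 2778 in irradiated, 2612 in etoposide and 1723 under thapsigargin, and without replicate 2 they were 889, 3090, 2917 and 1593. Other single libraries moved mRNA counts to 1440 to 1545 in irradiated against quiescent (2488) and 1841 to 1893 between the senescent states (3000). They moved footprint counts to 1558 in quiescent against cycling (2631), 939 to 1104 in irradiated against quiescent (1713) and 1500 to 1733 between the senescent states (2653). Depth limits WNT2 and AXIN2 footprints most.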
